A study of Arabidopsis thaliana with 36 samples.

Results

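The 9 genes described here form the core of iron uptake and of its control in Arabidopsis: IRT1 (AT4G19690), FRO2 (AT1G01580), FIT (AT2G28160), BHLH38 (AT3G56970), BHLH39 (AT3G56980), BHLH100 (AT2G41240), BHLH101 (AT5G04150), PYE (AT3G47640) and BTS (AT3G18290). They were picked by their AGI locus numbers for their known roles, with earlier results of these data known. They are 9 of the 28496 named genes in the table. The 36 RNA-seq libraries came from seedlings of the 35S:PHT5;1-GFP#12 line (line 12), the 35S:PHT5;1-GFP#04 line (line 4) and their Col-0 wild type (WT), both lines carrying the coding region of the vacuolar phosphate transporter PHT5;1 fused to GFP behind the 35S promoter, which is active in most plant cells. Lines 12 and 4 are independent transgenic lines, with no line carrying GFP alone among the groups. Seedlings grown for 10 days at 250 µM phosphate (Pi) were sampled then (sufficient Pi) or after a further 1 or 3 days at 10 µM Pi (starved), and roots and shoots were sequenced apart, with 2 libraries for each of the 18 combinations of tissue, genotype and supply. Each library pooled many seedlings, and the starved plants were also 1 or 3 days older and had been moved to new medium, so starvation, age and transfer cannot be told apart within a genotype. The libraries of a group are described as biological replicates, and whether they came from separate cultures is not stated in the sources used here, so the p-values measure the spread between such libraries.

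Arabidopsis takes up iron by acidifying the soil solution, reducing ferric iron at the root surface and importing the ferrous ion. FRO2 is the ferric chelate reductase of the root epidermis and IRT1 the ferrous iron transporter beside it. FIT, a bHLH transcription factor, pairs with the closely related factors BHLH38, BHLH39, BHLH100 and BHLH101 to switch IRT1 and FRO2 on when iron is short. PYE is a bHLH factor of the root pericycle that restrains several genes of iron movement, and BTS is an iron-binding E3 ubiquitin ligase that limits the iron deficiency response. IRT1 protein also carries zinc, manganese and cobalt, and transcripts of the 4 FIT partners are known for their very large rise when iron is withdrawn.

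The genes differ in the sequence just before their starts. In the 250 bases before the RefSeq start on the TAIR10.1 build, the E-box CANNTG, the core that bHLH factors bind, occurred in 55.3% of 27443 promoters, its G-box form CACGTG in 6.49%, and the GNATATNC element bound by the Pi starvation regulator PHR1 (P1BS) in 5.46%, each read on both strands. IRT1 and FRO2, whose transcripts follow each other most closely below, are shown because neither window holds any of the 3 motifs. IRT2, the next gene upstream of IRT1, is shown because its transcript moved the other way, and BTS because its window is the richest of the 9. Capitals mark E-boxes.
IRT1, chr4:10707094-10707343, plus strand: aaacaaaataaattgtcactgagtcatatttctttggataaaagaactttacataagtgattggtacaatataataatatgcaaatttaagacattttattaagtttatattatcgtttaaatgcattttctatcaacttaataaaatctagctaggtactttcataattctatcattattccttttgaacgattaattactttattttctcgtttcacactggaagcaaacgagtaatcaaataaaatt
FRO2, chr1:208745-208994, plus strand: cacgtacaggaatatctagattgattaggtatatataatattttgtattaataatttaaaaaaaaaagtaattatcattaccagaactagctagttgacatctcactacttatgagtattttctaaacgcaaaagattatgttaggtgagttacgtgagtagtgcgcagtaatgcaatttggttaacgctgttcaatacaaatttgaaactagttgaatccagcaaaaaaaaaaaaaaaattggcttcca
IRT2, chr4:10703098-10703347, plus strand: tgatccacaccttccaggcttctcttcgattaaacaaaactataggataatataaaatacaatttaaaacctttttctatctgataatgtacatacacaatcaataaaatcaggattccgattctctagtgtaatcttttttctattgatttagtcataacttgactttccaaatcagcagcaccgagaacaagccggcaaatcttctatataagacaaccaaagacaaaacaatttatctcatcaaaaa
BTS, chr3:6273716-6273965, plus strand: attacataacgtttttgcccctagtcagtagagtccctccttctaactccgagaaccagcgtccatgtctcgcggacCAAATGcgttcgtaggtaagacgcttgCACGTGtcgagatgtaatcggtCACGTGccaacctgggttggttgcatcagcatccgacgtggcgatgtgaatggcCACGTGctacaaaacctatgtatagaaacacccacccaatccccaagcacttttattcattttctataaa
BTS had 4 E-boxes, 3 of them G-boxes, at 146, 124 and 70 bases before its start. BHLH38 had 1 G-box at 97 bases, BHLH100 had 1 G-box at 91 bases and another E-box at 138 bases, and BHLH39 and FIT had 1 E-box each that is not a G-box, at 67 and 249 bases. BHLH101 and PYE had none, and no P1BS element lay in any of the 9 windows. A match to these letters is a description of the window and not a binding site.

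On the same build, IRT1 spans chr4:10707344-10709015 and FRO2 chr1:208995-213082, both on the plus strand. FIT lies at chr2:12004658-12006276, PYE at chr3:17567126-17569394 and BTS at chr3:6273966-6280562, also on the plus strand. BHLH38 (chr3:21084035-21085245) and BHLH39 (chr3:21086390-21087710) stand side by side on the minus strand, 1144 bases apart. BHLH100 (chr2:17198037-17199454) and BHLH101 (chr5:1138410-1139633) are on the minus strand too. The longest run of identical bases was 34 between BHLH38 and BHLH39 and 22 between IRT1 and its neighbour IRT2, both shorter than the reads of 100 bases.

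Values are RPKM, read numbers scaled to transcript length and to the mapped reads of the library. The steps between low values gave the reads behind each value: mapped totals were 19.0 to 40.7 M reads in roots and 23.5 to 37.2 M reads in shoots. PHT5;1 followed its labels in roots, at 306 to 399 RPKM in line 12, 52.1 to 92.4 in line 4 and 28.2 to 41.7 in WT. In shoots it stood at 52.6 to 93.8 RPKM in line 12, but line 4, at 18.9 to 35.5, overlapped WT at 14.7 to 19.9. Reads of the fusion and of the native gene are not separated. A gene was called changed when limma on log2(RPKM + 0.25) gave a Benjamini-Hochberg adjusted p below 0.05 over all genes tested in that tissue and the ratio of mean RPKM, with means under 0.25 set to 0.25, reached 1.5 in roots or 2 in shoots. Log2 changes on this scale understate those of low genes. In roots 8 of the 9 were tested, without BHLH100, whose root mean was under 0.25 RPKM, and only FIT, BHLH101, PYE and BTS were tested in shoots. In whole organs fewer cells of a type and less RNA per cell cannot be told apart.

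Most of this module belonged to the root. In WT at sufficient Pi, 6 of the 8 genes tested were lower in shoots than in roots and none was higher. Of all 21141 genes in this comparison 51.1% were called, 7581 lower and 3225 higher in shoots. IRT1, FRO2, BHLH38 and BHLH39 averaged 0.0687, 0.205, 0.106 and 0.0326 RPKM across shoots, under the 0.25 RPKM asked of a tissue. They were compared only because of their root values, which left their direction little room to differ. FIT and BHLH101 met that requirement in both organs. IRT1 had 0.0564 and 0.0253 RPKM in WT shoots, against 6.86 and 12.1 RPKM in WT roots, a log2 difference of -5.01 ± 0.33 (SE, adjusted p = 1.11e-12). FIT had 0.817 and 1.27 RPKM in those shoots, against 33.2 and 34.2 RPKM in roots (-4.73 ± 0.17, adjusted p = 6.71e-18). BHLH39 differed by -4.11, FRO2 by -3.53, BHLH38 by -2.76 and BHLH101 by -2.27 on the log2 scale, and all 6 calls stood whichever library was left out. PYE and BTS, by contrast, were not called. PYE was lower in shoots, at 4.59 RPKM on average against 8.14 RPKM in roots (-0.79 ± 0.24, SE, adjusted p = 0.00426), but its ratio of 0.564 missed the fold rule. BTS averaged 16.0 RPKM in shoots and 17.3 RPKM in roots (adjusted p = 0.256). The median gene stood at -0.65 in this comparison, and relative to it PYE was at -0.14 and BTS at 0.54.

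Among the root libraries FIT was the most abundant of the 9 per unit length, at 18.8 to 43.1 RPKM, and BTS came next at 14.6 to 21.5 RPKM, so the lowest FIT libraries fell within the BTS range. IRT1 ran from 1.35 to 15.8 RPKM. PYE at 5.36 to 9.15, BHLH39 at 3.65 to 10.8 and FRO2 at 2.04 to 8.58 RPKM overlapped it and each other. BHLH38 (0.664 to 4.31 RPKM) and BHLH101 (0.733 to 3.46 RPKM) were lower, and BHLH100 stayed at 0 to 0.406 RPKM, 66 reads in all 18 root libraries together. The FIT partners were thus present at few RPKM at every supply, and the values of BHLH100 rest on at most 10 reads a library.

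**Figure D1:**
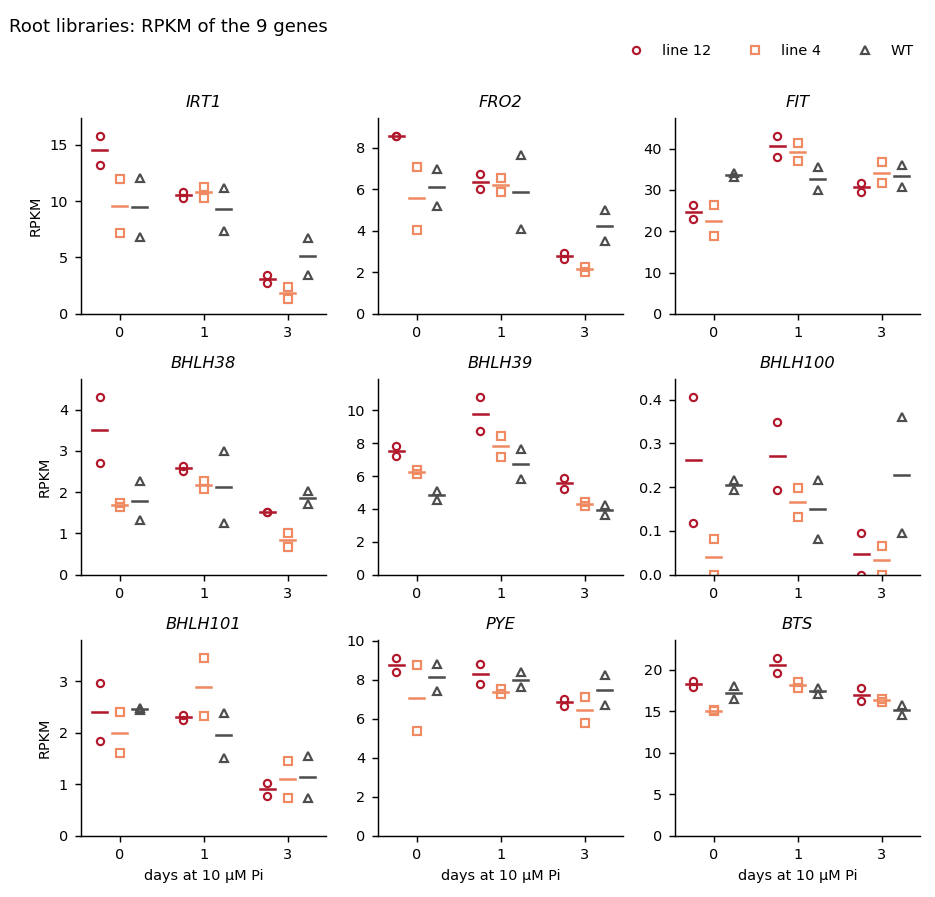
RPKM of the 9 genes in each root library (y axis) after 0, 1 and 3 days at 10 µM Pi (x axis), with line 12 as circles, line 4 as squares and WT as triangles, and bars at the mean of 2 libraries. IRT1 and FRO2 are lowest at 3 days in lines 12 and 4, FIT is at 18.8 to 43.1 RPKM throughout, and BHLH100 stays at or under 0.406 RPKM.

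The uptake pair fell in roots of the PHT5;1 lines after 3 days at 10 µM Pi. This within-line comparison was added after the values had been seen. IRT1 in line 12 stood at 15.8 and 13.2 RPKM at sufficient Pi, 10.3 and 10.8 RPKM after 1 day and 2.73 and 3.41 RPKM after 3 days. In line 4 it stood at 12.0 and 7.2, 11.3 and 10.3, and 2.39 and 1.35 RPKM at the same times. In WT it was at 6.86 and 12.1, 11.2 and 7.39, and 6.77 and 3.43 RPKM. In both lines all 3-day libraries lay below all earlier ones, with no overlap. WT 3-day libraries were below the earlier ones too, the nearest at 6.77 against 6.86 RPKM. The 3-day change was -2.15 ± 0.32 in line 12 (SE, adjusted p = 0.000191, 3.07 RPKM starved and 14.5 RPKM sufficient), -2.21 in line 4 (adjusted p = 8.38e-05, 1.87 RPKM starved and 9.58 RPKM sufficient) and -0.88 in WT (adjusted p = 0.0514), all on the log2 scale by limma.

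FRO2 moved with IRT1. In line 12 roots FRO2 had 8.58 and 8.56 RPKM at sufficient Pi, 6.03 and 6.74 RPKM after 1 day and 2.95 and 2.66 RPKM after 3 days. In line 4 it had 7.10 and 4.04, then 6.54 and 5.87, then 2.04 and 2.28 RPKM. WT had 5.21 and 7.0, then 7.66 and 4.11, then 5.02 and 3.50 RPKM, so the WT times overlapped while those of the lines at 3 days stood clear of the rest. The change over 3 days was -1.53 ± 0.26 in line 12 (SE, adjusted p = 0.00064), -1.22 in line 4 (adjusted p = 0.00225) and -0.50 in WT (adjusted p = 0.164). For both genes the calls in lines 12 and 4 stood whichever of the 4 libraries was left out, with adjusted p from 0.000201 to 0.0359.

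The larger fall in the lines was not itself established by the test of the difference. For IRT1 the 3-day change was lower than that of WT by 1.27 on the log2 scale in line 12 (-1.27, adjusted p = 0.0899) and by 1.33 in line 4 (-1.33, adjusted p = 0.10), and for FRO2 the differences were -1.03 (adjusted p = 0.0898) and -0.72 (adjusted p = 0.305). None of the 8 genes passed this test in either line by limma, where 11.1% of all genes did so for line 12 and 6.42% for line 4. At an unadjusted p below 0.05, 3 of the 8 passed for line 12 and 4 for line 4, beside 4811 and 3930 of all 20530 genes. IRT1 passed it in both lines without the second WT library at 3 days and in line 12 without the second WT library at sufficient Pi, and FIT passed it in line 4 without the first line 4 library at sufficient Pi.

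Against WT at the same supply, IRT1 was lower in line 4 at 3 days, with 2.39 and 1.35 RPKM in line 4 and 6.77 and 3.43 RPKM in WT (-1.30, adjusted p = 0.0246). Of all genes 3.02% were called there. This call rested on 2 libraries: the adjusted p was 0.307 without the first WT library and 0.31 without the second line 4 library at 3 days. In line 12 at 3 days, IRT1 at 3.07 RPKM and FRO2 at 2.80 RPKM, against 5.10 and 4.26 RPKM in WT, were not called, nor was any other of the 8 (5.18% of all genes were).

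Among the 4 FIT partners, BHLH38 and BHLH101 went down with IRT1 in line 12. BHLH38 stood at 2.70 and 4.31 RPKM in line 12 roots at sufficient Pi, 2.64 and 2.52 RPKM after 1 day, and 1.51 and 1.52 RPKM after 3 days (-1.06, adjusted p = 0.0263 over 3 days). BHLH101 stood at 2.97 and 1.83, then 2.25 and 2.35, then 1.02 and 0.777 RPKM (-1.18, adjusted p = 0.0205). Neither call was firm: without the second line 12 library at sufficient Pi, BHLH38 had an adjusted p of 0.249, and without the first BHLH101 had 0.16, and leaving out either 3-day library ended both calls (adjusted p 0.056 to 0.132). With IRT1 and FRO2 they made 4 of the 8 genes called lower in line 12 over 3 days, and none higher, beside 8.59% of all genes called. BHLH101 went down in the other genotypes as well. By limma it changed over 3 days by -1.03 in WT (adjusted p = 0.0287) and -0.77 in line 4 (adjusted p = 0.0916). Its change in line 12 differed from that in WT by -0.15 (adjusted p = 0.895).

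In line 4 the 8 genes gave 3 calls over the same 3 days, beside 13.0% of all genes: IRT1 and FRO2 lower, and FIT higher. FIT stood at 26.3 and 18.8 RPKM in line 4 roots at sufficient Pi, 41.3 and 37.0 RPKM after 1 day and 36.7 and 31.6 RPKM after 3 days (0.61 ± 0.14, SE, adjusted p = 0.00389 over 3 days), with no overlap between the sufficient and the starved libraries. The ratio of 1.51 lay just over the fold rule, and the adjusted p was 0.0536 without the second line 4 library at sufficient Pi and 0.0573 without the first at 3 days. In line 12 FIT had 26.4 and 23.1, then 38.1 and 43.1, then 29.6 and 31.7 RPKM. In WT it hardly varied, at 33.2 and 34.2, 35.5 and 29.9, and 36.1 and 30.7 RPKM. FIT transcript was therefore not lower at 3 days in the lines whose IRT1 and FRO2 transcripts fell. BHLH39 in line 4 had 4.20 and 4.40 RPKM after 3 days, against 6.12 and 6.36 RPKM at sufficient Pi, a ratio of 0.689 with adjusted p = 0.0156 that fell short of the fold rule, and BHLH38 missed the adjusted p narrowly (-0.85, adjusted p = 0.050).

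**Figure D2:**
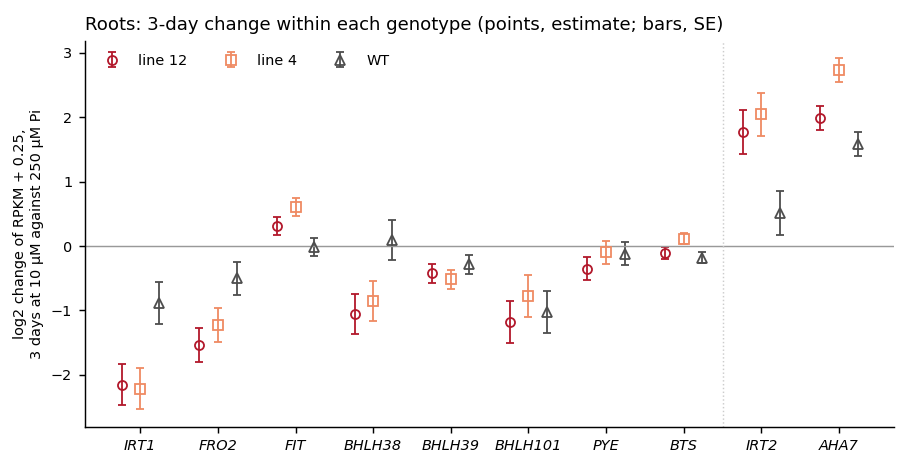
Log2 change in root RPKM after 3 days at 10 µM Pi against sufficient Pi, for line 12, line 4 and WT, as limma estimates with bars of 1 SE. IRT1 is at -2.15 in line 12, -2.21 in line 4 and -0.88 in WT, while IRT2 and AHA7 lie above 0 in every genotype.

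WT roots gave 1 call among these genes. After 1 day of starvation none of the 8 was called, by limma, beside 5.0% of all genes. At an unadjusted p below 0.05, 1 passed (BHLH39), beside 4203 of all 20530 genes. After 3 days 1 was called, beside 12.4% of all genes: BHLH101, at 0.734 and 1.54 RPKM in starved WT roots and 2.47 and 2.44 RPKM at sufficient Pi (-1.03, adjusted p = 0.0287). IRT1, at -0.88 with an adjusted p of 0.0514, was just short of a call and passed in 4 of the 8 alternative settings, and also without the first WT library at sufficient Pi or the first at 3 days. For BHLH101 the adjusted p was 0.112 and 0.0983 without the first or the second library at sufficient Pi and 0.301 without the first at 3 days.

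At sufficient Pi the partner BHLH39 was higher in line 12 roots. It had 7.24 and 7.81 RPKM in line 12, 6.12 and 6.36 RPKM in line 4, and 4.57 and 5.12 RPKM in WT, in that order with no overlap. The difference between line 12 and WT was 0.61 ± 0.15 (SE, adjusted p = 0.015), the only call among the 8 genes there, beside 5.10% of all genes. Without the first WT library the adjusted p was 0.129, and without the first or the second line 12 library it was 0.0535 and 0.118. The line 12 libraries lay above WT at each supply: 8.72 and 10.8 RPKM against 7.68 and 5.82 RPKM at 1 day, and 5.24 and 5.86 RPKM against 4.24 and 3.65 RPKM at 3 days. At 1 day the adjusted p was 0.029 but the ratio of 1.45 was under the fold rule, and at 3 days the adjusted p was 0.0528.

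FIT, in contrast, tended to be lower in both lines at sufficient Pi, with 26.4 and 23.1 RPKM in line 12, 26.3 and 18.8 RPKM in line 4 and 33.2 and 34.2 RPKM in WT, without overlap between either line and WT. The log2 difference was -0.45 in line 12 (adjusted p = 0.0618) and -0.59 in line 4 (adjusted p = 0.0145, ratio 0.669, not past the fold rule). In line 4 no gene of the 8 was called at sufficient Pi (4.44% of all genes were) and none after 1 day (3.17%), and in line 12 none was called after 1 day (5.87%). Without the first line 4 library at sufficient Pi, FIT and PYE were called there, and without the first WT or the first line 12 library at 1 day, BHLH39 was called in line 12. The numbers with an unadjusted p below 0.05 in these 3 comparisons were 3, 0 and 3, beside 4531, 3384 and 5203 of all 20530 genes.

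PYE and BTS, the regulators named for holding the response back, varied least. Root PYE ran from 6.65 to 9.15 RPKM in line 12, 5.36 to 8.77 RPKM in line 4 and 6.71 to 8.82 RPKM in WT. Root BTS ran from 16.3 to 21.5, 15.0 to 18.5 and 14.6 to 18 RPKM in line 12, line 4 and WT. With all libraries, neither was called in any root comparison, and their ranges overlapped between genotypes.

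IRT2, a close relative and the upstream neighbour of IRT1, did not follow it. It encodes a metal transporter of root epidermal cells, and its end lies 2505 bases before the IRT1 start with no protein-coding gene between. Over 3 days IRT2 was higher in line 12 (4.12 RPKM starved and 1.03 RPKM sufficient, 1.77, adjusted p = 0.00163) and in line 4 (4.31 RPKM starved and 1.02 RPKM sufficient, 2.05, adjusted p = 0.000285), while WT stood at 0.51 on the log2 scale (adjusted p = 0.274). At sufficient Pi it was lower than WT in line 12 (1.03 RPKM in line 12 and 2.91 RPKM in WT, -1.31, adjusted p = 0.0231) and in line 4 (1.02 RPKM, -1.51, adjusted p = 0.0102). Over the 18 root libraries, which fall into 9 groups, IRT1 and IRT2 had r = -0.69, a description only. AHA7, a plasma membrane proton pump of the root, rose in starved roots of line 12 (34.3 RPKM starved and 8.46 RPKM sufficient), line 4 (34.9 and 5.22 RPKM) and WT (46.2 and 15.3 RPKM). Of 7 root hair markers, 6 rose over 3 days in each genotype, with summed RPKM of 245 to 257 starved and 76.6 to 79.3 sufficient in line 12, 275 to 289 and 51.8 to 80.5 in line 4, and 309 to 348 and 142 to 147 in WT. Over the same 3 days IRT1 and FRO2 were called lower in lines 12 and 4 and were not called in WT. The part of root hairs in the values of IRT1, FRO2, IRT2 and AHA7 was not tested.

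Ordered by likeness over the 18 root libraries, the gene closest to IRT1 among all 20530 tested was FRO2, and the gene closest to FRO2 was IRT1 (Pearson r = 0.957 on the log2 scale). Next to IRT1 came AT5G19970 (0.930) and TOE2 (0.919), and next to FRO2 AT1G08110 (0.930) and ZIP6 (0.925). The closest to FIT was AT3G44190 (0.930), to BHLH39 IP5PII (0.930), to BTS AT1G10890 (0.904), to PYE UBP6 (0.891), to BHLH38 AT1G61960 (0.874) and to BHLH101 AT1G21010 (0.866). None of these besides IRT1 and FRO2 is among the 9. The libraries share depth and groups, so these values describe the table and carry no test.

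Of 14 other genes of root iron acquisition, 13 were tested in roots. Over 3 days, 3 were higher and none lower in each genotype, beside 8.59% (line 12), 13.0% (line 4) and 12.4% (WT) of all genes called, with medians of -0.07 in line 12, 0.08 in line 4 and -0.06 in WT on the log2 scale, beside medians of all genes between -0.08 and 0.02. Those called in lines 12 and 4 were AHA7, IRT2 and F6'H1, an enzyme of the iron-chelating coumarins, at 125 RPKM starved and 73.9 RPKM sufficient in line 12 and 122 and 71.4 RPKM in line 4. In WT they were AHA7, AT3G58060 (1.16 and 0.282 RPKM) and AT3G12900 (7.16 and 3.74 RPKM). At sufficient Pi, AHA7 and IRT2 were the 2 genes called in each line, both lower than in WT. No gene of this list was called lower over 3 days, and the difference of the list from IRT1 and FRO2 was not tested.

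Another list held 15 genes, regulators acting above or beside FIT together with the IRONMAN peptides. The sources used here annotate the loci of these peptides only as unknown proteins. Of the 15 genes, 14 were tested in roots. The named regulator BHLH11 was among the genes that changed over 3 days in WT roots, and its means fell in both lines too, as given below. The largest root changes of the list in lines 12 and 4 were at loci of the IRONMAN peptides. AT1G47400 and AT1G47395, 2 neighbours among them, had 7.94 and 14.6 RPKM on average in line 12 roots at sufficient Pi, 1.90 and 4.5 RPKM in line 4, and 0.471 and 1.31 RPKM in WT (log2 3.67 and 3.33 in line 12, 1.74 and 1.64 in line 4). After 1 day they averaged 5.46 and 8.66 RPKM in WT, 0.898 and 0.975 RPKM in line 12, and 0.697 and 2.06 RPKM in line 4. AT1G47400 in WT at 1 day (3.21 to 7.70 RPKM) overlapped line 12 at sufficient Pi (7.13 to 8.75 RPKM). After 3 days the 2 loci were at 0.421 and 0.677 RPKM in line 12 and 0.296 and 0.205 RPKM in line 4, against 2.19 and 2.61 RPKM in WT. Their 3-day changes differed from those of WT by -5.50 and -4.95 in line 12 (adjusted p = 7.04e-05 and 4.93e-05) and by -3.94 and -4.45 in line 4 (adjusted p = 0.00252 and 0.000311). They share a run of 59 identical bases, longer than in the pairs above but shorter than a read of 100 bases, and how reads were divided between them was not tested. BHLH34, a bHLH factor acting above the FIT partners, followed in line 12 (4.90 RPKM starved and 11.1 RPKM sufficient). Over 3 days the list gave 1 rise and 4 falls in line 12, 1 rise and 3 falls in line 4, and 1 rise and 2 falls in WT, beside 8.59%, 13.0% and 12.4% of all genes called. BHLH11, a repressor of iron uptake, was at 4.61 RPKM starved and 16.3 RPKM sufficient in WT. It averaged 10.9 and 17.6 RPKM in line 12 and 5.97 and 17.8 RPKM in line 4.

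Some genes of iron movement within the plant were lower in starved roots of the lines: of 12 tested, 4 were lower and none higher over 3 days in each line, and 1 was lower in WT, beside 8.59% (line 12), 13.0% (line 4) and 12.4% (WT) of all genes called, and the others did not pass. NAS1, which makes the metal chelator nicotianamine, had 34.9 RPKM starved and 83.7 RPKM sufficient in line 12 and 21.8 and 70.7 RPKM in line 4. NAS4 had 3.62 and 7.61 RPKM in line 12, and FRD3, the citrate exporter that loads iron into the xylem, 11.5 and 23.6 RPKM. At sufficient Pi, NAS4, NAS1, OPT3 and FRD3 were higher in line 12 than in WT (4 of 12, none lower, beside 5.10% of all genes), where IRT1 stood at 14.5 RPKM in line 12 and 9.47 RPKM in WT but was not called. Of 7 storage genes tested, VTL5, VTL2 and VTL1, relatives of the vacuolar iron transporter VIT1, were lower over 3 days in WT roots (VTL5 66.3 RPKM starved and 192 RPKM sufficient) and in line 4, and VTL1 alone of them was called in line 12 (17.1 RPKM starved and 30.5 RPKM sufficient). The ferritin FER1, the plastid iron store, averaged 176 RPKM starved and 125 RPKM sufficient in line 12 roots, 238 and 147 RPKM in line 4, where it was called (0.70, adjusted p = 7.41e-05), and 167 and 168 RPKM in WT. Group means in roots were 6.55 to 8.36 RPKM for FER2, 54.7 to 76.7 for FER3, 19.6 to 24.6 for FER4 and 0.0392 to 0.281 for VIT1.

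**Figure D3:**
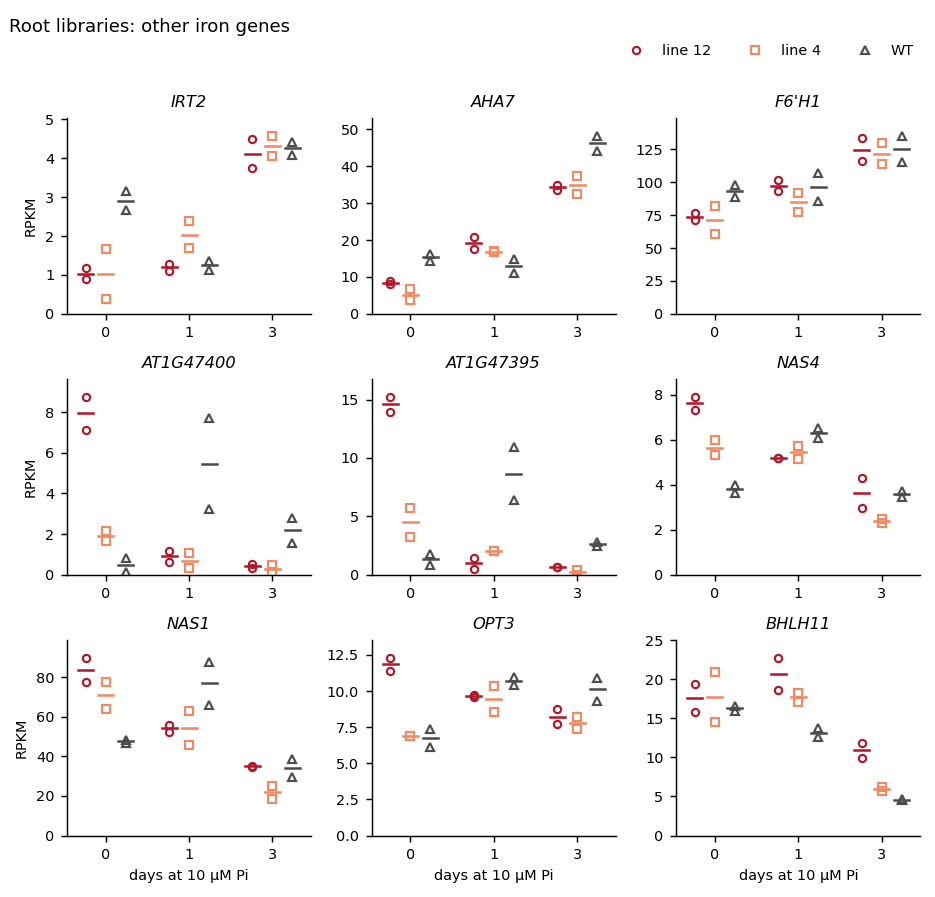
RPKM in each root library (y axis) after 0, 1 and 3 days at 10 µM Pi (x axis) of IRT2, AHA7, F6'H1, AT1G47400, AT1G47395, NAS4, NAS1, OPT3 and BHLH11, with line 12 as circles, line 4 as squares, WT as triangles and bars at group means. AT1G47400 and AT1G47395 have their highest group means in line 12 at sufficient Pi, at 7.94 and 14.6 RPKM, and AHA7 is highest at 3 days in each genotype.

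In shoots 5 of the 9 genes were close to nothing. Over the 18 shoot libraries together IRT1 had 53 reads, FRO2 249, BHLH38 47, BHLH39 14 and BHLH100 37, and BHLH38, BHLH39 and BHLH100 had no read in 9, 12 and 10 libraries. For BHLH39 a library without a read allows up to 0.0957 to 0.152 RPKM at 3 reads, counting error only. These genes were not tested. The second WT library at 1 day stood apart: it held the highest shoot value of 6 of the 9, IRT1 (0.245 RPKM), BHLH38 (0.708 RPKM), BHLH39 (0.192 RPKM), BHLH100 (0.519 RPKM), BHLH101 (1.34 RPKM) and PYE (8.40 RPKM). The other WT library at 1 day had 0, 0.0795, 0, 0, 0.752 and 6.36 RPKM of the same genes. FIT, the most abundant of the 9 in roots, had its lowest shoot value in that second library, 0.618 RPKM.

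FIT was the clearest of the shoot results. After 1 day it had 2.03 and 2.08 RPKM in line 12, 0.843 and 0.888 RPKM in line 4 and 0.925 and 0.618 RPKM in WT. Line 12 stood above both others with no overlap, and its difference from WT was 1.19 ± 0.21 (SE, adjusted p = 0.000644), called whichever of the 4 libraries was left out (adjusted p at most 0.00904). The median gene stood at 0.19 in this comparison, and relative to it FIT was at 1.00. In other shoot comparisons the median gene stood between -0.14 and 0.19. BHLH101 was the other call of the 4 genes tested there, beside 11.3% of all genes, with 0.223 and 0 RPKM in line 12 and 0.752 and 1.34 RPKM in WT. These are 6 and 0 reads in line 12 and 15 and 24 in WT, and the adjusted p of 0.015 became 0.102 without the second WT library and 0.128 without the second line 12 library.

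Over 3 days FIT rose in line 4 shoots, with 1.63 and 1.78 RPKM starved and 0.795 and 0.767 RPKM sufficient (0.92, adjusted p = 0.00463), the only call of the 4 genes beside 6.96% of all genes, and it stood whichever library was left out (adjusted p 0.0191 to 0.0407). Line 12 had 1.52 and 1.51 RPKM starved and 1.12 and 1.37 RPKM sufficient, and WT had 1.07 and 1.08 RPKM starved and 0.817 and 1.27 RPKM sufficient, both uncalled. The change in line 4 exceeded that of WT by 0.87 (adjusted p = 0.0437), 1 of 4 genes beside 29.8% of all genes. Relative to the median gene it was 0.71, with libraries rescaled by the median ratio its adjusted p was 0.0942, and it held in only 1 of the 8 fits that left out a library, that without the first WT library at sufficient Pi (adjusted p 0.0722 to 0.177 in the others).

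BHLH101 went the other way in line 12 shoots. It had 25 and 10 reads at sufficient Pi (1.02 and 0.571 RPKM), 6 and 0 reads after 1 day and 0 and 2 reads after 3 days. Line 4 had 9 and 2, 5 and 6, and 2 and 0 reads at these times, and WT 11 and 2, 15 and 24, and 20 and 6. The 3-day change in line 12 was called (-1.76, adjusted p = 0.0247, 1 of 4 genes beside 8.27% of all genes), as was its difference from WT (-2.24, adjusted p = 0.0399, 1 of 4 genes beside 33.2%). At such read numbers the log2 values depend on the added 0.25 RPKM, and each call was lost without single libraries. For the change in line 12, the adjusted p was 0.147 without the first library at sufficient Pi and 0.139 and 0.0532 without the first or second at 3 days. For the difference from WT, it was 0.057 to 0.165 without the same 3 libraries, the second WT library at sufficient Pi or the first WT library at 3 days.

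PYE and BTS gave no call in shoots. PYE ran from 3.53 to 8.40 RPKM over the 18 libraries. It had 4.18 and 4.44 RPKM after 1 day in line 12, 4.54 and 8.14 RPKM in line 4, and 6.36 and 8.40 RPKM in WT; the difference between line 12 and WT had an adjusted p of 0.0403 but a ratio of 0.584, short of the fold of 2. BTS ran from 14.9 to 23.2 RPKM over all 18 libraries. It was higher in line 12 than in WT at sufficient Pi (ratio 1.32, adjusted p = 0.0145) and in WT after 1 day than at sufficient Pi (ratio 1.36, adjusted p = 0.0106), both under the fold rule. No gene of the 4 was called in WT after 1 day (6.07% of all genes) or 3 days (6.81%), in line 12 at sufficient Pi (9.04%) or after 3 days (7.69%), or in line 4 at sufficient Pi (3.21%), after 1 day (5.84%) or after 3 days (8.22%). Without the second WT library at 3 days, 1 gene, BHLH101, was called lower in each line at that time. By limma the numbers with an unadjusted p below 0.05 in these 7 comparisons were 2, 0, 1, 1, 1, 2 and 2. Among all 19773 genes the numbers at that level were 7179, 8258, 7281, 9470, 4418, 7476 and 9260.

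**Figure D4:**
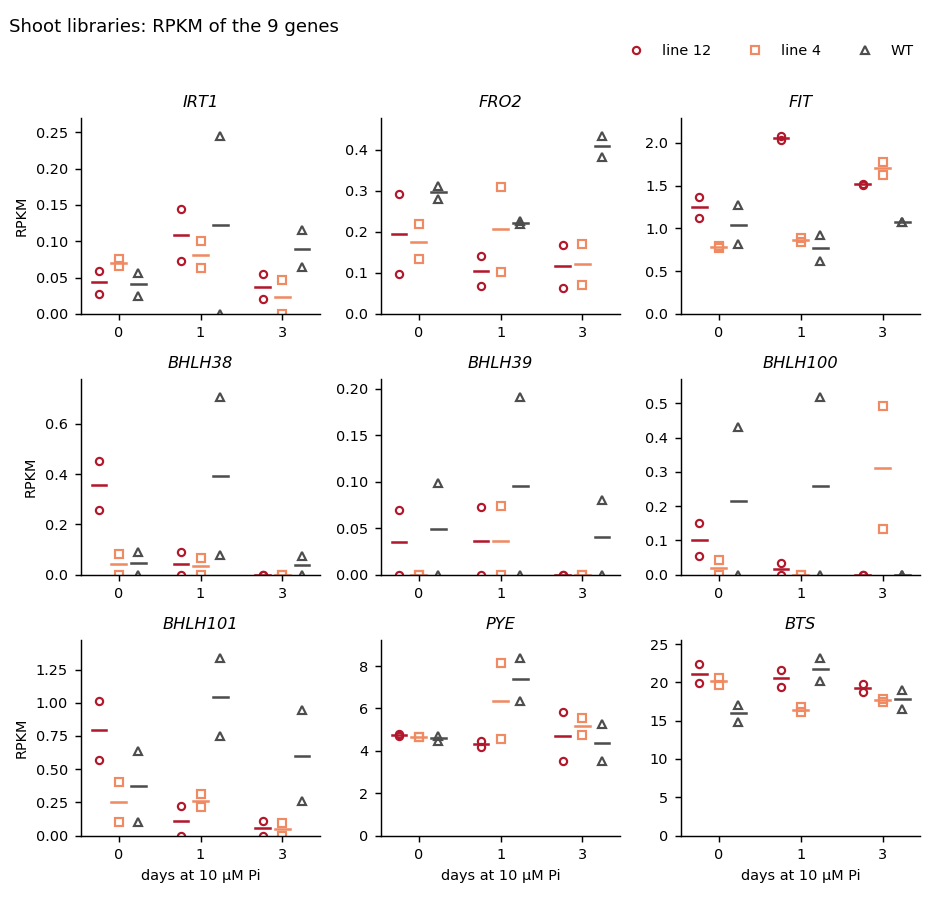
RPKM of the 9 genes in each shoot library (y axis) after 0, 1 and 3 days at 10 µM Pi (x axis), with line 12 as circles, line 4 as squares, WT as triangles and bars at group means. IRT1, FRO2, BHLH38, BHLH39 and BHLH100 stay under 0.75 RPKM, FIT is highest in line 12 at 1 day, and the second WT library at 1 day tops 6 panels.

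Around these low members, other shoot iron genes had 3-day changes in the lines that differed from those of WT. As a check of the supply labels, chosen after the data were seen, genes known to rise at low Pi were read. SPX1 stood at 156 to 165 RPKM in starved (3 days) and 10.0 to 10.4 RPKM in sufficient WT shoots, as labelled. In line 4 it stood at 40.6 to 45.7 and 14.7 to 18.3 RPKM. In line 12 the values overlapped, at 40.4 to 49.5 and 38.8 to 46.2 RPKM. After 1 day SPX1 averaged 44.8 RPKM in WT shoots. Lines 12 and 4 had 12.9 and 7.09 RPKM then, below their own sufficient libraries. Over 3 days in line 12 shoots, PAP17 (12.5 RPKM starved, 19.4 RPKM sufficient) and PHT1;4 (3.93 and 9.46 RPKM) fell, against the labels. SQD2 (63.9 and 36.4 RPKM) and MGD3 (6.84 and 4.30 RPKM) rose there, and all of these rose in WT shoots. SPX3 and NPC5 were too low in line 12 shoots to read. In line 12 roots SPX1 averaged 324 RPKM starved (3 days) and 49.6 RPKM sufficient, as labelled. PAP17 (117 and 22.7 RPKM) and PHT1;4 (123 and 40.8 RPKM) rose there too, and NPC5 was too low to read. The paper reports that genes induced by low Pi tended to be higher in its overexpressing line at sufficient Pi. It also reports that several of them were suppressed in that line under low Pi. The part of this in the shoot values was not tested. The hour of harvest is not given in the sources used here, so a difference in it between groups cannot be told apart from genotype or supply. FER1 averaged 195 RPKM starved for 3 days and 84.8 RPKM sufficient in line 12, 360 and 134 RPKM in line 4, and 121 and 226 RPKM in WT, and its 3-day change differed from that of WT by 2.09 in line 12 (adjusted p = 0.000137) and 2.32 in line 4 (adjusted p = 9.05e-05). FRO7, the chloroplast relative of FRO2, had 6.06 RPKM starved and 25.2 RPKM sufficient in line 12, 4.41 and 14.2 RPKM in line 4, and 28.0 and 9.69 RPKM in WT. NAS1 had 1.55 and 10.0 RPKM in line 12, 1.94 and 7.60 RPKM in line 4, and was not called in WT. bHLH121, a partner of the factors above FIT, had 72.7 and 28.6 RPKM in line 12, 77.0 and 34.9 RPKM in line 4, and a 3-day change above that of WT by 2.11 and 1.91. AT2G30766, another IRONMAN peptide locus, had 0.0958 RPKM in line 12, 0.289 RPKM in line 4 and 4.07 RPKM in WT after 1 day. This was the WT group where the second library topped 6 of the 9 genes. Beside 33.2% (line 12) and 29.8% (line 4) of all shoot genes, 4 of 7 storage genes tested differed upward from WT in their 3-day change in each line, and of 13 movement genes 7 differed downward and 1 upward in line 12 and 4 downward and 2 upward in line 4. Of 8 acquisition genes tested in shoots, none differed in this 3-day change in line 12 and 1, MYB10, in line 4 (1.75, adjusted p = 0.0431). F6'H1, among these 8, had 2.21 and 5.85 RPKM in line 12 and 0.524 and 0.0553 RPKM in WT at sufficient Pi. After 1 day F6'H1 had 5.34 and 5.02 RPKM in line 12 and 0.0803 and 0.417 RPKM in WT. Group means in shoots were 0.249 to 1.14 RPKM for FER2, 44.6 to 110 for FER3, at most 92.3 for FER4 and 0 to 0.307 for VIT1. Green tissue markers, 7 genes, also summed lower in starved shoots of the lines, at 35682 to 37387 RPKM in line 12, 37309 to 40144 RPKM in line 4 and 46214 to 53730 RPKM in WT after 3 days, and their part in these results was not tested.

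**Figure D5:**
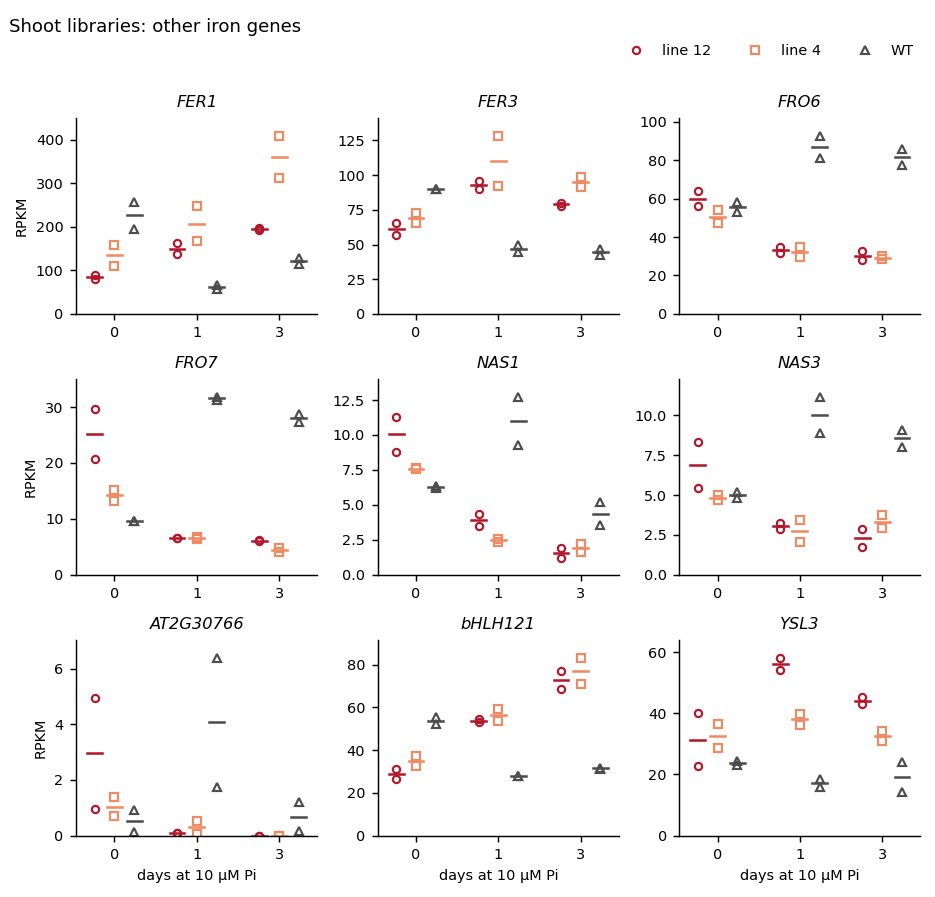
RPKM in each shoot library (y axis) after 0, 1 and 3 days at 10 µM Pi (x axis) of FER1, FER3, FRO6, FRO7, NAS1, NAS3, AT2G30766, bHLH121 and YSL3, with line 12 as circles, line 4 as squares, WT as triangles and bars at group means. FER1 and bHLH121 are higher and FRO7 lower in starved than in sufficient shoots of lines 12 and 4, and the reverse in WT.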

How the data were processed

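Total RNA was sequenced as 2 libraries for each of 18 groups. Per the methods, paired reads were mapped to TAIR10 in CLC Genomics Workbench, and the authors deposited RPKM values per gene and library. Their pooled means and ratios in other sheets were not used, and 146 entries without a gene name (at most 0.109% of summed RPKM) were left out. Values were taken as log2(RPKM + 0.25), a tissue mean of 0.25 RPKM or more was required (20530 in root, 19773 in shoot), and the 9 groups of a tissue were fitted in 1 model with limma 3.58.1 (trend, R 4.3.3), adjusted by Benjamini-Hochberg over all genes tested. The shoot against root comparison used all 36 libraries and a fold of 2, and differences between 3-day changes were called by adjusted p alone. Single-exon genes gave the reads behind the values: at least 99.4% of low values were whole within 0.02 reads. Promoter windows were read from the RefSeq TAIR10.1 assembly, and coordinates are 1-based.

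The members and gene lists were chosen with earlier results of these data known. All 9 genes are named in every comparison. From each list up to 4 called genes with the largest change per comparison could be named, with the ferritins, VIT1 and the 3 genes most like each member; not all are printed. The 3-day change of each line against its own sufficient Pi was chosen after the data were seen. Alternatives were other pseudocounts, filters, scaling, no variance trend, only the groups compared, a replicate block and leaving out each library.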

Additional observations from a re-analysis of the deposited data

Results flagged for a closer look

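The 3-day change in shoots differed between a PHT5;1 line and WT by the test of the difference itself for 2 results. For BHLH101 in line 12 the difference was -2.24 on the log2 scale (adjusted p = 0.0399), with 0 and 2 reads in starved and 25 and 10 reads in sufficient line 12 shoots. It was 1 of 4 genes called, beside 33.2% of all genes, and the call was lost with a pseudocount of 0.05, with only the groups compared and without any of 5 single libraries. For FIT in line 4 it was 0.87 (adjusted p = 0.0437), with 1.63 and 1.78 RPKM in starved and 0.795 and 0.767 RPKM in sufficient line 4 shoots. It was 1 of 4 genes called, beside 29.8% of all genes, and the call was lost with rescaled libraries (adjusted p = 0.0942), with the replicate block, with only the groups compared and in 7 of the 8 fits that left out a library.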

How the results depend on the processing

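No result changed direction under the alternatives tried. The 6 calls between shoots and roots stood under each of them. For IRT1, FRO2, BHLH38 and BHLH39 the direction had little room to differ, because their shoot means were under 0.25 RPKM. The falls of IRT1 and FRO2 over 3 days in roots of both lines stood under each alternative too. Counts of the 9 genes called moved elsewhere. In WT roots at 3 days the count of 1 became 2 with a pseudocount of 1, with a mean of at least 1 RPKM and with only the groups compared, and 0 with no filter. In line 4 roots against WT at 3 days the count of 1 became 0 with no filter and with no variance trend, 2 with rescaled libraries and 3 with only the groups compared. For root differences in the 3-day change the count of 0 became 1 with only the groups compared (line 12) and 1 with rescaled libraries (line 4), and within line 4 over 3 days the 3 became 5 with only the groups compared. In shoots, line 12 against WT at 1 day had 1 in place of 2 with a mean of at least 1 RPKM. The shoot differences in the 3-day change had 0 in place of 1 with a mean of at least 1 RPKM and with only the groups compared in each line, and 0 with a pseudocount of 0.05 in line 12. The change within line 12 shoots had 0 in place of 1 with a mean of at least 1 RPKM.

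With 1 library left out, the root counts ran from 0 to 1 for WT at 1 day, WT at 3 days, line 12 at sufficient Pi, line 12 at 1 day, line 4 at 3 days and both differences in the 3-day change, from 0 to 2 for line 4 at sufficient Pi, from 2 to 3 within line 12 and from 2 to 3 within line 4. In shoots they ran from 1 to 2 for line 12 at 1 day, from 0 to 1 for lines 12 and 4 at 3 days, from 0 to 1 for both differences in the 3-day change and from 0 to 1 within line 12. Of the values of single genes called, 63 kept their side of the threshold with a library left out and 33 did not.

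Replicate numbers showed little pairing in most pairs of groups, though some pairs shared deviations. Deviations of same-numbered libraries had a median r of 0.0725 in roots (-0.0688 to 0.238) and 0.0245 in shoots (-0.178 to 0.699). Of 36 pairs of groups, 10 in roots and 11 in shoots were over 0.1. With the replicate number as a block, the count became 2 for WT roots at 3 days, 2 for line 4 roots at 3 days, 1 for the root difference in line 4, 1 for line 12 and 1 for line 4 shoots at 3 days, and 0 for the shoot difference in line 4. Depth limits the shoot values of IRT1, BHLH38, BHLH39 and BHLH100, most of which rest on 3 or fewer reads.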
